A study of Sus scrofa with 32 samples.

Results

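Interferon-stimulated genes were followed through the endometrium of gilts, young female pigs, on Day 14 of gestation (pregnant) or, per the labels, Day 14 after ovulation (cyclic). The set held 41 genes with known roles in the response to interferons, matched by their pig symbols to the NCBI gene IDs of the count tables (40 by current symbol, IFIT5 by an older one), out of 30185 genes counted. Luminal epithelium (LE), glandular epithelium (GE), larger blood vessels (BV) and stroma (S) had been cut from frozen sections by laser capture microdissection, from 4 pregnant gilts (P139, P39, P41 and P43) and 4 nonpregnant, cyclic gilts (C128, C40, C42 and C78), named here by the letter of their group and the number in their library labels. The study synchronized all gilts, prepuberal at the start, with the hormones eCG and hCG. Pregnant gilts were inseminated with semen and cyclic gilts with semen supernatant from the same boar. Pregnant tissue was taken at the hyperemic zones, where embryos attach. Each gilt was sampled once per compartment, which gave 31 libraries. Groups had n = 4 except pregnant GE, where gilt P41 was not analysed here and n = 3. Detectable genes, those that passed the authors' filter on low counts, included 38 (LE), 36 (GE), 38 (BV) and 39 (S) of the 41. A total of 36 members were detectable in all 4 compartments, ISG15 only in S, and OASL and IDO1 in none. MX2 and BST2 were below the filter in GE.

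Interferons are secreted proteins that bind receptors on the cell surface and act through JAK kinases and STAT transcription factors. Type I interferons act mainly through a complex with STAT2 and IRF9 that binds the interferon-stimulated response element (ISRE), and interferon gamma acts largely through the gamma-activated site (GAS). Pig conceptuses secrete interferon gamma and interferon delta during attachment, and interferon-stimulated genes are known to respond in the pregnant uterus of several species. The comparisons below address where in the endometrium these genes were expressed, and whether their level differed between pregnant and cyclic gilts.

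Levels are given as CPM, read counts scaled to the size of their library with TMM factors set over all 31 libraries, and, where genes are compared with each other, as CPM per kilobase of exon. Library totals ranged from 2415216 to 7081556 counts. Epithelial markers (EPCAM, KRT8, KRT18, KRT19, CDH1 and CLDN4) summed to 1363 to 3165 CPM in LE and GE and to 2.56 to 423 CPM in BV and S. Endothelial markers summed to 1318 to 2648 CPM in BV and, overlapping these, to 418 to 2483 CPM in S. Their sum was 112 to 895 CPM in LE, overlapping S, and 13.7 to 162 CPM in GE. Fibroblast markers such as COL1A1 were found in every compartment, from 2877 to 16514 CPM in the epithelia and from 25082 to 106304 CPM in BV and S. Several markers differed with pregnancy. The epithelial sum in BV was 2.56 to 45.3 CPM in cyclic and 149 to 271 CPM in pregnant gilts, smooth muscle markers in BV were 5110 to 17092 and 724 to 6217 CPM, and the sum of 16 leukocyte markers in GE was 57.7 to 86.4 and 116 to 152 CPM. In the leukocyte list MS4A1, a B cell marker with 53 counts over all libraries, had no counts in any group of LE or GE libraries. CD79A, also a B cell marker, had none in cyclic LE but was counted in pregnant LE and in both groups of GE. Such low counts cannot show whether B cells were present.

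The sequence before the annotated start of 5 members is shown because their levels carry the patterns described below, with IRF1, CXCL10 and IDO1 from the genes that stood out in single pregnant gilts and IFI6 and IFITM3 the most abundant members per length. Each sequence is the 250 bases upstream of the gene in Sscrofa11.1, written 5′ to 3′ on the gene's own strand. Capitals mark matches on either strand to the ISRE core GAAANNGAAA or to the GAS pattern TTCNNNGAA.
IRF1: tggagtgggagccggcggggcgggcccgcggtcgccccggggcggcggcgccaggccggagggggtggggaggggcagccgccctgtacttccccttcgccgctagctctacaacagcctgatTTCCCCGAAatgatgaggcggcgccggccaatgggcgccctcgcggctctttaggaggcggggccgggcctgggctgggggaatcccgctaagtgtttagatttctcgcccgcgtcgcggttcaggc
CXCL10: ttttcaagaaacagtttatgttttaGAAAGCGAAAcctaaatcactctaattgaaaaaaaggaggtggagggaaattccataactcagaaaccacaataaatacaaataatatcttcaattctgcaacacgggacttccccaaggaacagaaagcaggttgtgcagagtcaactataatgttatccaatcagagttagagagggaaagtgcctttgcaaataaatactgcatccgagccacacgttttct
IDO1: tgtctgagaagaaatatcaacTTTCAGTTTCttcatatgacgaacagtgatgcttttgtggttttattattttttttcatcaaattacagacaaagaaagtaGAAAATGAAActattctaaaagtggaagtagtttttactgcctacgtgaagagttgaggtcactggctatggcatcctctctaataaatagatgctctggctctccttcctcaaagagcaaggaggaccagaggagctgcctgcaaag
IFI6: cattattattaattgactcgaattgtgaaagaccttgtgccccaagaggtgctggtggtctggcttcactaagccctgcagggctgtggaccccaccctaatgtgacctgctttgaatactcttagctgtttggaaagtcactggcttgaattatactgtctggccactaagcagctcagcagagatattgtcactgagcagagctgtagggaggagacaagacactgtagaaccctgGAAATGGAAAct
IFITM3: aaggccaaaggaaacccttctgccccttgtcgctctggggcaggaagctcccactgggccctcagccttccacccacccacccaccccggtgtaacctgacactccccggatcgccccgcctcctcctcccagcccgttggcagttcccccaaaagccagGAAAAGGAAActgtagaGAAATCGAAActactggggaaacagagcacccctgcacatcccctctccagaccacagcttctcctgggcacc
The minus-strand windows were chr2:134783647-134783896 for IRF1, chr8:71695949-71696198 for CXCL10, chr6:84858073-84858322 for IFI6 and chr2:129737-129986 for IFITM3, and that of IDO1 was chr17:9245033-9245282 on the plus strand. The window of IRF1 held 1 GAS match, starting 127 bases before the gene, and no ISRE core. CXCL10 had 1 ISRE core, at 225 bases, IDO1 had 2, at 229 and 148 bases, IFITM3 had 2, at 90 and 73 bases, and IFI6 had 1, at 12 bases. Across the set, 16 of 41 upstream windows (39.02%) held the ISRE core, against 3.01% of the 19548 windows of protein-coding genes. The GAS pattern was found in 3 of 41 windows (7.32%), those of IRF1, IRF9 and BST2, against 6.11% of all windows, and the match in BST2 overlapped an ISRE core. The windows of GBP1, GBP2, OAS1, IRF2 and TRIM25 held neither. These are matches of letters in a short window and not measured binding.

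Stroma had the highest and glandular epithelium the lowest level for most of these genes. Of the 39 members detectable in at least 1 compartment, 29 had their highest mean in S, against 22.2% of all 13887 such genes, and 28 had their lowest mean in GE, against 37.4% of all genes. With any 1 gilt left out these counts were 26 to 30 and 26 to 32. MX2 and BST2 in GE and ISG15 in LE, GE and BV were below the filter and were among the 39 only through compartments where they were higher, and over the 36 members detectable in all 4 compartments the counts were 26 and 25, against 21.5% and 35.5% of all such genes. The members with their highest mean in LE were PARP14, PARP9, DTX3L, HERC5, IFIT2, IFITM3, TRIM25, IFI35 and OAS1, and IRF2 was highest in GE. The place of OAS1 rested on cyclic gilt C128, without which its level in LE went from 40.8 to 20.3 CPM per kb. That is below its levels in GE (37.8) and S (31.3). A joint edgeR quasi-likelihood fit had the gilt as a block. In it 33 of 39 members differed among the 4 compartments at a false discovery rate of 1%. That share was of the same order as the 75.8% of all genes called in that test. Over the 36 members detectable in all 4 compartments the count was 30, against 73.8% of all such genes.

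**Figure D1:**
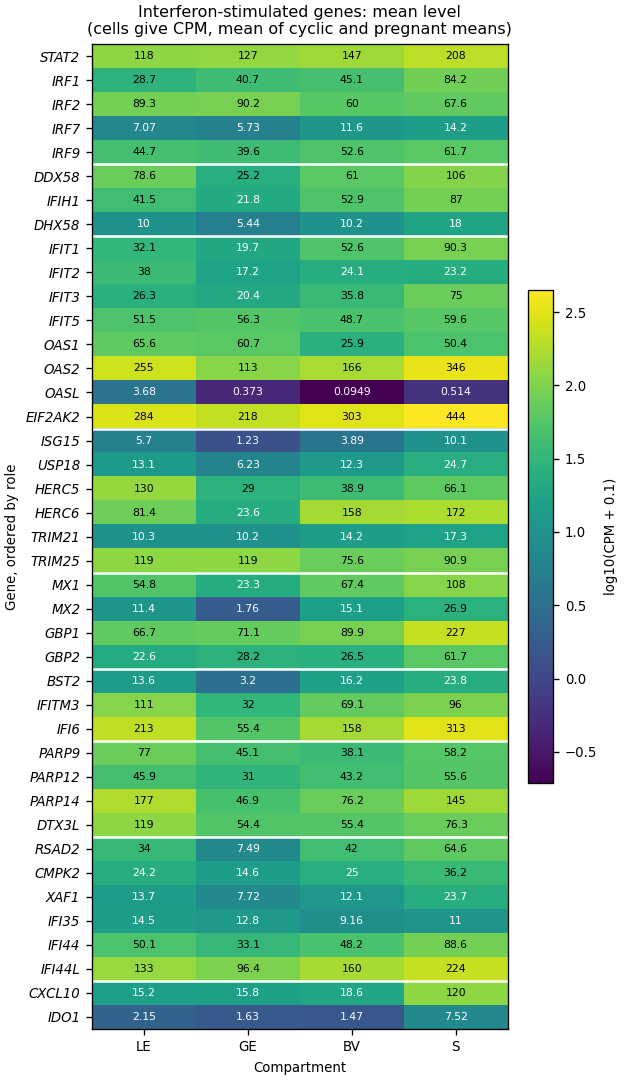
Mean level of all 41 genes (rows, ordered by role) in LE, GE, BV and S (columns), as CPM, averaged over the cyclic and the pregnant mean. Color is log10(CPM + 0.1), and 29 of the 39 detectable genes are highest in S.

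Most of these differences had 1 direction. Between GE and S, 31 of 39 members differed at 1%, and all 31 were higher in S, whereas S was higher for 31.4% of all genes (59.3% called in either direction). Over the 36 members detectable in all compartments the count was 28, against 28% of all such genes higher in S. CXCL10, a chemokine that attracts T cells, was 4.37 log2 units lower in GE than in S (SE 0.67, edgeR adjusted p = 7.2e-06). RSAD2 (viperin), which blocks viral replication, was 3.29 log2 units lower (SE 0.40, edgeR adjusted p = 3.4e-07). IRF2, TRIM25, IFIT2, IFIT5, OAS1, PARP9, DTX3L and IFI35 were not called in this pair.

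Between LE and S, 21 of 39 members were higher in S and 2, HERC5 and DTX3L, were higher in LE. The shares of all genes were 23.9% and 26.7% (50.6% in either direction). Over the 36 members detectable in all compartments the counts were 20 and 2, against 24% and 26.8% of all such genes. Between the 2 epithelia, 15 of 39 members were called, all higher in LE, against 25.9% of all genes higher in LE and 41.4% called in either direction. Of the 36 members detectable in all compartments 13 were called, against 22.3% of all such genes higher in LE, and the largest differences among them were those of PARP14 (2.49 log2 units) and HERC5 (2.30), a ligase that attaches ISG15 to proteins. BV was higher than GE for 19 members and lower for IRF2 and TRIM25, against 29.9% and 28.4% of all genes (58.3% in either direction). Of the 36 members detectable in all compartments, 13 were higher in BV and 2 in GE, against 26.2% and 28.8% of all such genes. Between LE and BV 7 members were called (49.2% of all genes), with HERC6 higher in BV (23.4% of all genes) and IRF2, HERC5, TRIM25, PARP9, PARP14 and DTX3L higher in LE (25.8%). BV and S differed for only 2 members in this test, OAS2 and IFI6, both higher in S, against 7.19% of all genes in either direction and 3.38% higher in S. Fibroblast markers were also far higher in BV and S than in the epithelia, and their part in these levels was not tested.

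Per kilobase of exon, IFI6 and IFITM3 were the leading members in every compartment. IFI6, a mitochondrial and endoplasmic reticulum membrane protein that limits apoptosis and flavivirus replication, reached 403 CPM per kb in S, 274 in LE, 204 in BV and 71.4 in GE. IFITM3, which blocks entry of viruses from endosomes, reached 252 CPM per kb in LE, 219 in S, 158 in BV and 73.1 in GE. The value of IFITM3 in LE rested on cyclic gilt C128, without which it was 143 CPM per kb, below S and BV. In S the member ranked next was CXCL10 with 105 CPM per kb, but without pregnant gilt P139 its level was 43.5 CPM per kb and OAS2 ranked next with 79.6. In LE and BV the next member was OAS2, an enzyme that makes the activator of RNase L, with 63.5 and 41.4 CPM per kb. In GE it was OAS1, with 37.8 CPM per kb, a rank that IFIT5 took when any of 4 of the 7 GE libraries was left out. By contrast ISG15, the ubiquitin-like modifier, was detectable only in S, where the cyclic libraries gave 13.2 ± 4.29 and the pregnant libraries 6.95 ± 2.58 CPM (SD, n = 4 each).

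No member was called between pregnant and cyclic gilts by the main test in any compartment. A call in LE required a false discovery rate of 1% in an edgeR quasi-likelihood test, and the largest unadjusted p called there (0.000328) served as the limit for the other 3 compartments, after the study's own rule. Over all genes the shares called were 3.32% (LE), 0.748% (GE), 1.86% (BV) and 0.293% (S). With the unadjusted p alone, below 0.05, the count was 12 of 38 members in LE (26.9% of all genes), 8 of 36 in GE (23% of all genes), 6 of 38 in BV (28.5%) and 10 of 39 in S (14.5%). DESeq2 called 4, 4, 1 and 2 members, in the same order of compartments (11.2%, 6.64%, 8.5% and 2.6% of all genes), and the robust edgeR GLM called 2, 5, 1 and 4 (11.8%, 6.66%, 11% and 3.16%).

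The median log2 fold change (pregnant over cyclic) of the members was -0.32 in LE, with 11 higher and 27 lower in pregnant gilts, whereas 49.4% of all genes were higher. It was 0.06 in GE (19 higher, 17 lower), 0.15 in BV (24 higher, 14 lower) and -0.31 in S (17 higher, 22 lower), where 49.3%, 50.2% and 50.1% of all genes were higher. The splits in LE, GE and BV shifted when single libraries were left out. Without cyclic gilt C128, 17 members were higher and 21 lower in LE (median -0.11). Without pregnant gilt P139, 8 were higher and 28 lower in GE (median -0.40), and without gilt P41 or P43, 17 and 16 were higher in BV, with medians of -0.03. The libraries of the 2 groups did not overlap for 2 members in LE (19.6% of all genes), 5 in GE (23%), 2 in BV (18.2%) and 3 in S (8.76%). In each compartment this share was below that of all genes.

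**Figure D2:**
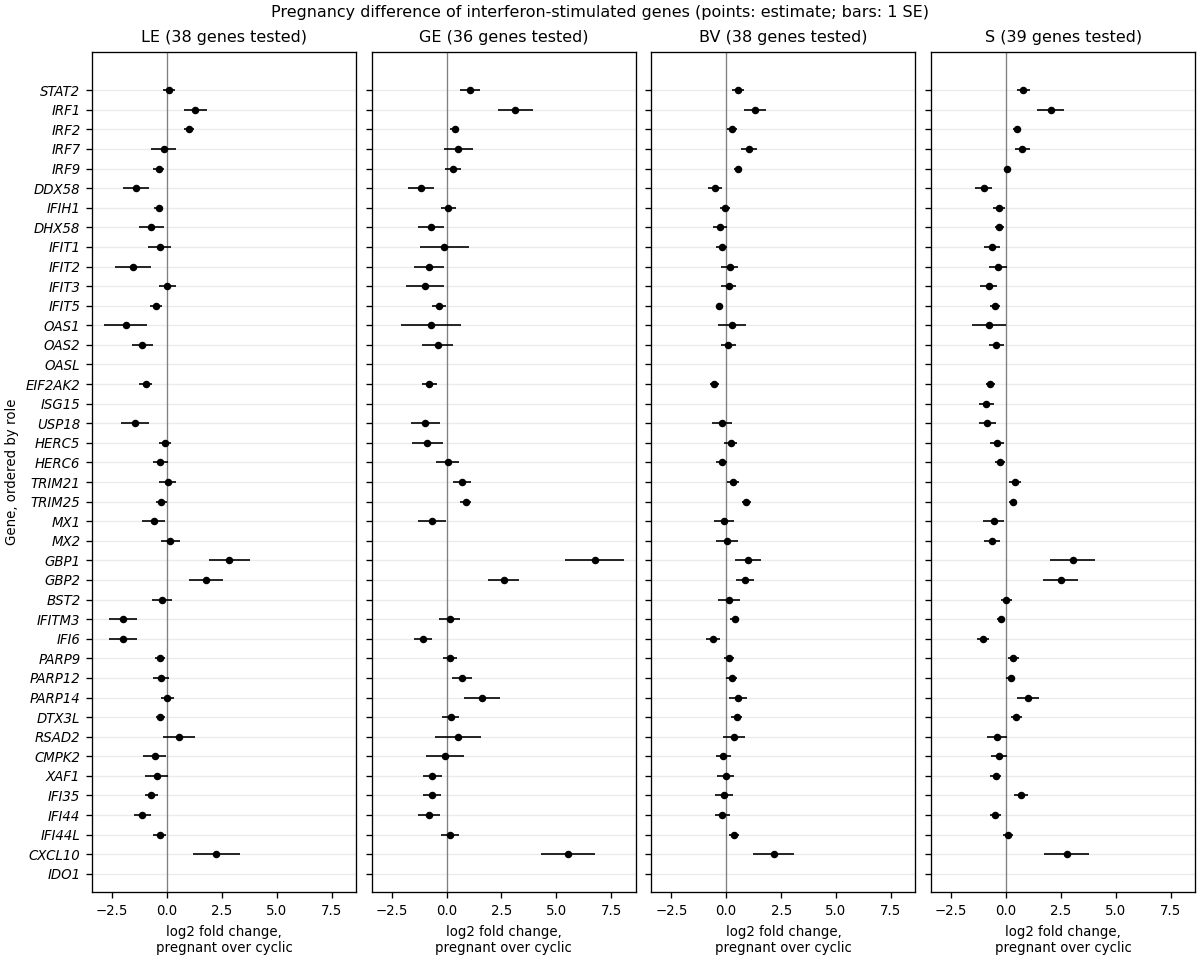
Log2 fold change of each member between pregnant and cyclic gilts (x axis; points, edgeR estimates; bars, 1 SE) in LE, GE, BV and S. GBP1 and CXCL10 in GE lie farthest to the right, at 6.74 and 5.53, with SEs of 1.33 and 1.23.

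IRF2 in LE and TRIM25 in BV were the only members with an edgeR adjusted p under 0.05, a limit that 10.7% (LE), 1.86% (GE), 8.63% (BV) and 0.0335% (S) of all genes passed. IRF2 (gene ID 100621620, chromosome 15) is a transcription factor that competes with IRF1 for the same DNA sites. In LE its level was 57.0, 57.5, 46.8 and 76.4 CPM in cyclic gilts C128, C40, C42 and C78, and 147, 111, 88.5 and 130.0 CPM in pregnant gilts P139, P39, P41 and P43. All 4 pregnant libraries lay above all cyclic ones. The log2 fold change in LE was 1.02 (SE 0.23, edgeR adjusted p = 0.023), and both DESeq2 (adjusted p = 0.00095) and the robust GLM (adjusted p = 0.00096) called it. In S the groups did not overlap either, at 53.2 to 61.3 CPM in cyclic and 66.2 to 99.6 CPM in pregnant gilts, and the log2 fold change was 0.48 (SE 0.15, edgeR adjusted p = 0.21). In GE and BV the groups overlapped, with log2 fold changes of 0.36 and 0.25.

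TRIM25 (gene ID 100622285, chromosome 12) is a ubiquitin ligase that activates the RNA sensor RIG-I. In BV its level was 41.7, 62.6, 55.1 and 51.0 CPM in cyclic gilts C128, C40, C42 and C78, and 65.1, 113, 103 and 113 CPM in pregnant gilts P139, P39, P41 and P43. The groups did not overlap, and the log2 fold change in BV was 0.92 (SE 0.20, edgeR adjusted p = 0.028). DESeq2 (adjusted p = 0.0011) and the robust GLM (adjusted p = 8.8e-05) called it in BV. Without pregnant gilt P139 the difference in BV was 1.07 and was called by the main rule (edgeR adjusted p = 0.011). In GE the level of TRIM25 was 63.0 to 125 CPM in cyclic and 140.3 to 179 CPM in pregnant gilts, again without overlap, with a log2 fold change of 0.88 (SE 0.25, edgeR adjusted p = 0.098). In LE the order was the other way, 104 to 179 CPM in cyclic and 74.5 to 134 CPM in pregnant gilts, and the groups overlapped. The epithelial markers given above were also higher in pregnant BV, and TRIM25 was 0.71 log2 units higher in LE than in BV, but their part in the difference in BV was not tested.

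**Figure D3:**
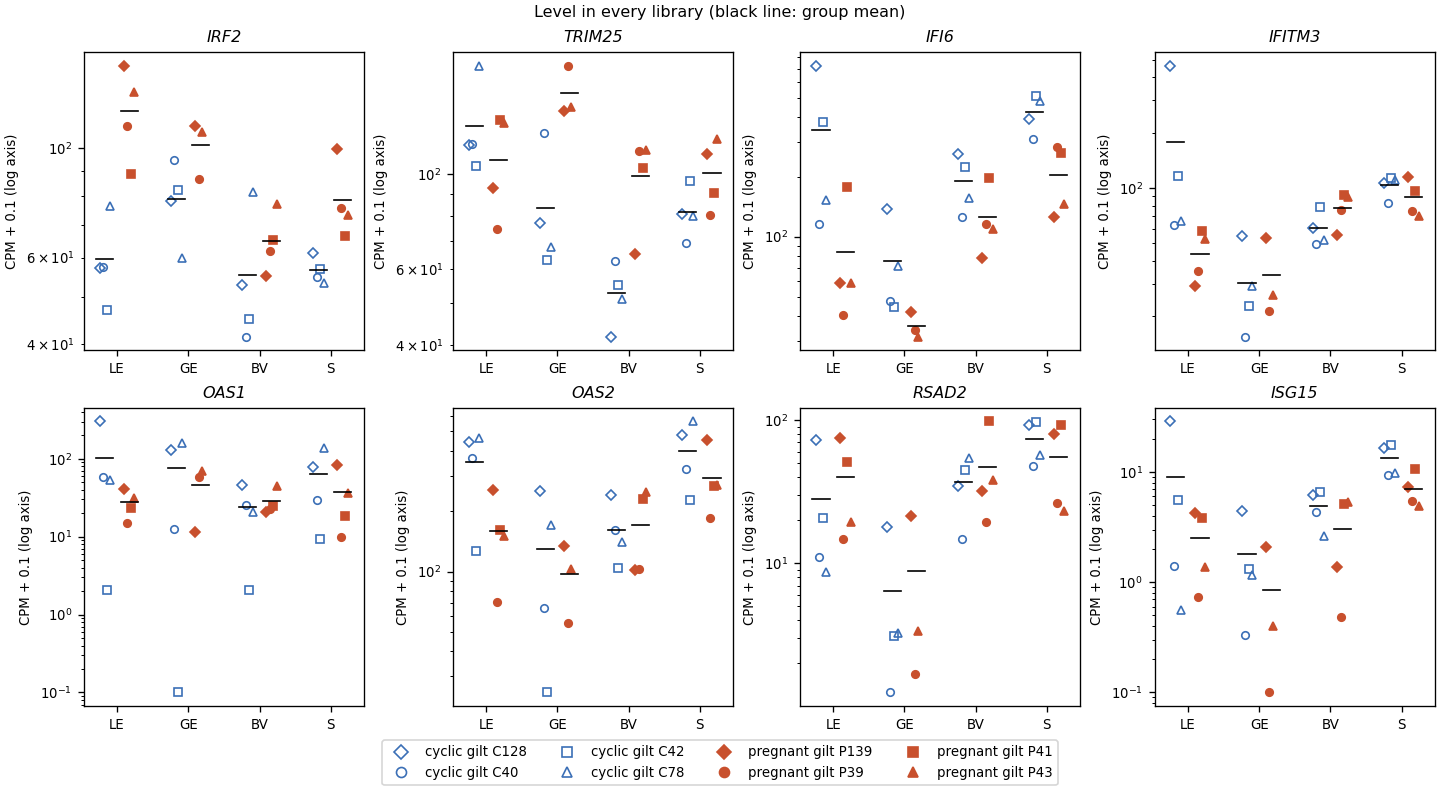
CPM + 0.1 (log axis) of 8 members in every library, by compartment, for cyclic (blue) and pregnant (orange) gilts, with 1 symbol per gilt and a black line at the group mean. IRF2 in LE and TRIM25 in BV are separated between the groups, IFI6 and IFITM3 in LE are highest in cyclic gilt C128 (724 and 463 CPM), and OAS1 is lowest in cyclic gilt C42 among cyclic libraries in every compartment.

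IRF1, GBP1, GBP2, CXCL10 and IDO1 were higher on average in pregnant gilts in all 4 compartments, but most of the excess came from 1 or 2 animals. These 5 genes were grouped after their values had been seen. In GE, DESeq2 and the robust GLM both called IRF1, GBP1, GBP2 and CXCL10, which the main test did not call. IRF1 is a transcription factor induced by interferon gamma, GBP1 and GBP2 are guanylate-binding GTPases that attack pathogen vacuoles, and IDO1 degrades tryptophan. IRF1 (gene ID 396611, chromosome 2) stood at 8.43, 5.99, 8.89 and 9.75 CPM in GE of cyclic gilts C128, C40, C42 and C78, and at 176, 13.9 and 29.6 CPM in GE of pregnant gilts P139, P39 and P43. The groups did not overlap in GE, and the log2 fold change was 3.13 (SE 0.78, edgeR adjusted p = 0.078), or 1.39 without gilt P139. In S the level of IRF1 was 26.6 to 38.2 CPM in cyclic gilts and 296, 63.0, 21.9 and 161 CPM in pregnant gilts P139, P39, P41 and P43. Gilts P139 and P43 were high, whereas gilt P41 was below every cyclic library, and the log2 fold change in S was 2.04 (SE 0.63, edgeR adjusted p = 0.21), or 1.32 without gilt P139. The endothelial sum in pregnant S had the same order of gilts, at 2483, 834, 825 and 1603 CPM in P139, P39, P41 and P43 against 418 to 1425 CPM in cyclic S, and its part in the levels of IRF1, GBP1, GBP2 and CXCL10 in S was not tested. In LE only gilt P139 was high, at 90.0 CPM against 23.4 to 25.4 CPM in the other pregnant and 11.14 to 25.4 CPM in the cyclic gilts. In BV only gilt P43 was high, at 149.9 CPM against 31.7 to 40.2 CPM in the other pregnant and 19.8 to 36.6 CPM in the cyclic gilts.

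GBP1 (gene ID 100151938, chromosome 4) had the largest fold change of any detectable member. In GE its level was 2.16, 1.15, 1.21 and 0.636 CPM in cyclic gilts C128, C40, C42 and C78, and 358, 4.46 and 60.6 CPM in pregnant gilts P139, P39 and P43. The groups did not overlap, and the log2 fold change in GE was 6.74 (SE 1.33, edgeR adjusted p = 0.050), or 4.63 without gilt P139. In S GBP1 was 1191, 55.4, 26.5 and 349.7 CPM in pregnant gilts P139, P39, P41 and P43 against 29.5 to 92.2 CPM in cyclic gilts, so that gilts P39 and P41 lay within or below the cyclic range. In LE it was 344, 61.4, 19.3 and 40.7 CPM in pregnant gilts P139, P39, P41 and P43 against 3.64 to 28.8 CPM in cyclic gilts. The log2 fold changes of GBP1 in LE and S were 2.84 and 3.03 (SE 0.94 and 1.04, edgeR adjusted p = 0.083 and 0.24), and without gilt P139 they were 1.26 and 1.55. In BV, gilt P43 had 307 CPM and the other pregnant gilts 41.5 to 70.1 CPM, within the cyclic range of 33.6 to 76.1 CPM, and without gilt P43 the log2 fold change in BV went from 0.97 to -0.11.

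GBP2 (gene ID 100153137), a neighbor of GBP1 on chromosome 4, followed the same gilts. Its level in GE was 7.15 to 9.33 CPM in cyclic gilts and 111, 10.2 and 23.6 CPM in pregnant gilts P139, P39 and P43, with a log2 fold change of 2.61 (SE 0.71, edgeR adjusted p = 0.090), or 1.09 without gilt P139. In S it was 14.6 to 27.1 CPM in cyclic gilts and 277, 22.8, 14.7 and 105 CPM in pregnant gilts P139, P39, P41 and P43. In LE gilt P139 had 103 CPM, and the other pregnant gilts 10.6 to 14.6 CPM against 8.74 to 12.6 CPM in cyclic gilts. Reads from near-identical stretches of GBP1 and GBP2 could be split by the counting, so the 2 genes may not be fully separate measurements.

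CXCL10 (gene ID 494019, chromosome 8) was 1.08, 0.461, 0.808 and 0.212 CPM in GE of cyclic gilts C128, C40, C42 and C78, and 66.5, 0.524 and 26.0 CPM in pregnant gilts P139, P39 and P43. Gilt P39 lay within the cyclic range, and the log2 fold change in GE was 5.53 (SE 1.23, edgeR adjusted p = 0.062). In S it was 7.01 to 58.0 CPM in cyclic gilts and 630.3, 61.5, 12.8 and 129 CPM in pregnant gilts P139, P39, P41 and P43. In LE gilt P139 had 81.2 CPM, and the other pregnant gilts 4.00 to 8.96 CPM lay within the cyclic range of 0.683 to 10.2 CPM. In BV gilt P43 had 98.0 CPM, and the other pregnant gilts had 5.50 to 10.3 CPM. The log2 fold change of CXCL10 went from 2.25 to 0.16 in LE without gilt P139 and from 2.16 to 0.25 in BV without gilt P43.

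IDO1 (gene ID 100519877, chromosome 17) was below the detection filter in every compartment, and its counts lay mostly in the same libraries. In S it was 31.8 and 25.2 CPM in pregnant gilts P139 and P43, 0.380 and 0.655 CPM in pregnant gilts P39 and P41, and 0 to 0.841 CPM in cyclic gilts. In GE no count was found in the 4 cyclic libraries, which allows up to 0.178 CPM (3 counts over the group), against 43 counts in the pregnant libraries, all in gilts P139 and P43. Pooled over libraries, the exact 95% interval of the ratio in GE began at 15.9. In LE and BV the cyclic libraries held 2 and 1 counts and the pregnant ones 70 and 31. Of the pregnant counts, 56 in LE were in gilt P139 and 12 in gilt P41, and 30 in BV were in gilt P43. Pooled ratios were 32.1 (95% exact interval 8.57 to 271) in LE and 37.9 (6.32 to 1545) in BV. These intervals and limits cover counting error only and not the spread between gilts. In an edgeR fit without the filter, added after the data were seen, IDO1 had adjusted p-values of 0.067 (LE), 0.11 (GE), 0.15 (BV) and 0.18 (S).

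**Figure D4:**
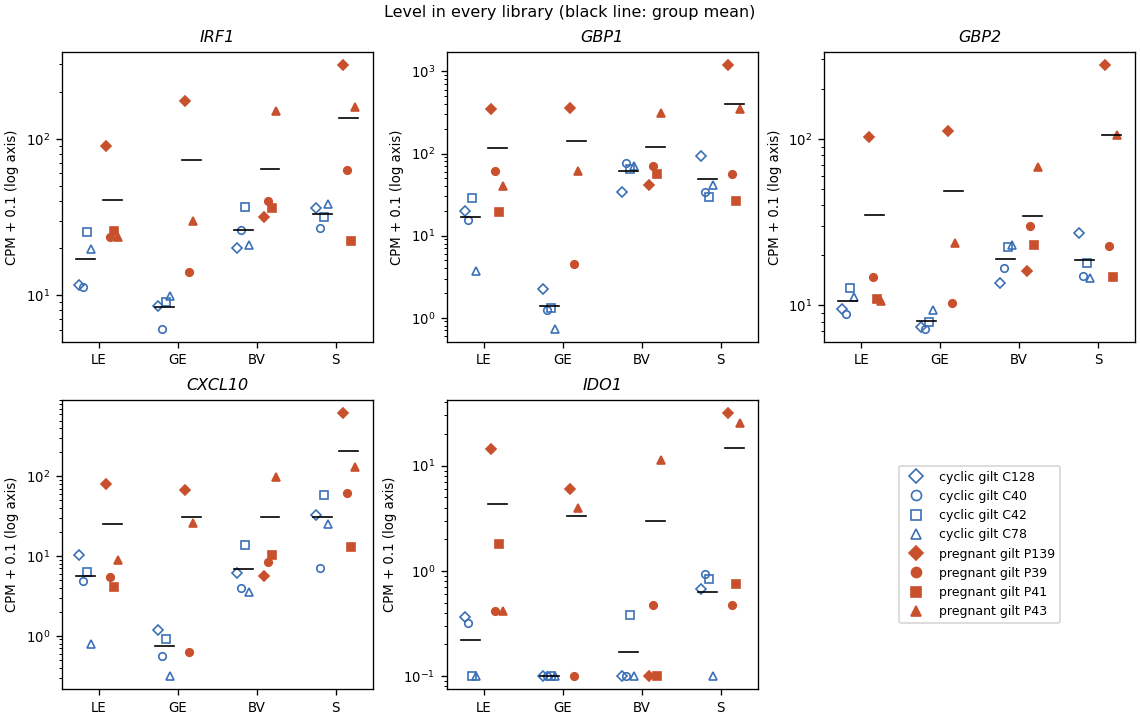
CPM + 0.1 (log axis) of IRF1, GBP1, GBP2, CXCL10 and IDO1 in every library, by compartment, for cyclic (blue) and pregnant (orange) gilts, with 1 symbol per gilt and a black line at the group mean. Pregnant gilt P139 is highest in LE, GE and S and pregnant gilt P43 in BV, where IRF1 reaches 149.9 CPM.

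IFI6 and IFITM3 had lower mean levels in pregnant LE, not called by the main test, with a wide spread among cyclic gilts. IFI6 (gene ID 110261124, chromosome 6) stood at 724, 115, 375 and 152 CPM in LE of cyclic gilts C128, C40, C42 and C78, and at 58.4, 40.1, 178 and 58.3 CPM in pregnant gilts P139, P39, P41 and P43. The groups overlapped through gilt P41, and the log2 fold change in LE was -2.003 (SE 0.65, edgeR adjusted p = 0.079), or -1.35 without cyclic gilt C128. In S IFI6 was 310.4 to 509 CPM in cyclic and 126 to 281 CPM in pregnant gilts, without overlap, and the log2 fold change was -1.04 (SE 0.29, edgeR adjusted p = 0.17). In GE the groups did not overlap either, at 44.0 to 138 CPM and 31.4 to 41.5 CPM. DESeq2 and the robust GLM both called IFI6 in LE and in S. IFITM3 (gene ID 100518544, chromosome 2) was 463, 62.9, 116 and 66.4 CPM in LE of cyclic gilts C128, C40, C42 and C78, and 29.3, 35.3, 58.0 and 52.5 CPM in pregnant gilts P139, P39, P41 and P43. The groups did not overlap in LE, and the log2 fold change was -1.99 (SE 0.63, edgeR adjusted p = 0.074), or -0.90 without cyclic gilt C128. DESeq2 also called IFITM3 in LE, and the robust GLM did not. In GE, BV and S the differences of IFITM3 were 0.14, 0.38 and -0.21, and the groups overlapped.

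OAS1 and OAS2 are oligoadenylate synthetases, which sense double-stranded RNA, and OAS1 varied widely between cyclic gilts. OAS1 (gene ID 397570, chromosome 14) was 302, 58.1, 1.997 and 52.8 CPM in LE of cyclic gilts C128, C40, C42 and C78. In cyclic gilt C42 it was also 0, 1.99 and 9.11 CPM in GE, BV and S, the lowest of the cyclic libraries each time. OAS2 was also lowest in this gilt among cyclic libraries, at 24.8 to 228 CPM over the 4 compartments. Pregnant gilts had 15.0 to 40.6 CPM of OAS1 in LE and 9.87 to 84.0 CPM in S. OAS1 had the highest SD of log2 CPM of any member within cyclic LE (2.89), GE (3.94), BV (1.80) and S (1.68), where the medians over members were 0.61, 0.60, 0.35 and 0.41. OAS2 (gene ID 595128) was 442, 368, 126 and 465 CPM in LE of cyclic gilts C128, C40, C42 and C78, and 255, 70.3, 162 and 150.1 CPM in pregnant gilts P139, P39, P41 and P43. The groups overlapped through cyclic gilt C42, and the log2 fold change of OAS2 in LE was -1.12 (SE 0.47, edgeR adjusted p = 0.16).

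RSAD2 (gene ID 396752, chromosome 3) showed no common direction. In LE it was 72.5 CPM in cyclic gilt C128 and 8.65 to 20.5 CPM in the other cyclic gilts, and 74.8, 14.6, 50.7 and 19.2 CPM in pregnant gilts P139, P39, P41 and P43. In GE only cyclic gilt C128 and pregnant gilt P139 were high, at 17.7 and 21.2 CPM, against 1.15 to 3.29 CPM in the other GE libraries. The log2 fold changes were 0.56, 0.51, 0.36 and -0.40 in LE, GE, BV and S, with SEs of 0.46 to 1.04. ISG15 (gene ID 100145895, chromosome 6) in S was 16.2, 9.25, 17.5 and 9.76 CPM in cyclic gilts C128, C40, C42 and C78, and 7.25, 5.31, 10.5 and 4.77 CPM in pregnant gilts P139, P39, P41 and P43. The groups overlapped through gilt P41, with a log2 fold change of -0.90 (SE 0.34, edgeR adjusted p = 0.28).

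Among the other members, most of those that bind or sense viral RNA had negative log2 fold changes, none called by the main test. EIF2AK2 (PKR), the kinase that halts translation on double-stranded RNA, had log2 fold changes of -0.97, -0.78, -0.54 and -0.71 in LE, GE, BV and S, with edgeR adjusted p = 0.059 in LE, and the sign held with any 1 library left out. DDX58, which encodes RIG-I, had -1.41, -1.18, -0.51 and -1.02, and was called only by the robust GLM in S (adjusted p = 0.0038). Without cyclic gilt C128 its values in LE and GE were -0.48 and -0.57. Of the 7 detectable RNA-binding and RNA-degrading effectors, 6 in LE, all 7 in GE, 3 in BV and all 7 in S had lower fitted levels in pregnant gilts, and none was called. The count in S was also 7 with any 1 library left out, but in GE it was 2 without cyclic gilt C128, where IFIT1 went from -0.11 to 1.85 and IFIT3 from -0.995 to 0.24.

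Of the 5 transcription factors, 3 in LE and all 5 in GE, BV and S had higher fitted levels in pregnant gilts, with none called. In GE this count was 3 without gilt P139, where IRF7 went from 0.54 to -0.82 and IRF9 from 0.28 to -0.15, and in S it was 4 without cyclic gilt C40 or pregnant gilt P139 or P43. IRF7, the main inducer of type I interferon genes, was 1.06 log2 units higher in pregnant BV (SE 0.36, edgeR adjusted p = 0.096), or 0.59 without gilt P43. STAT2 had log2 fold changes of 0.10, 1.05, 0.55 and 0.80 in LE, GE, BV and S, with 0.17 in GE without gilt P139 and 0.22 in BV without gilt P43. PARP9, PARP12, PARP14 and DTX3L, which act on ADP-ribose and ubiquitin, had positive values in GE, BV and S, and none was called. In GE 3 of the 4 were negative without gilt P139, where PARP14 went from 1.62 to -0.03, and in BV 2 were negative without gilt P43. PARP9 and DTX3L lie on opposite strands and overlap. IRF1, CXCL10, STAT2, DDX58, IFIT1, IFIT2, IFIT3 and ISG15 also overlap an annotated gene of the other strand, IRF2, OAS1 and XAF1 overlap one of their own strand, and the strand setting of the counting is not given in the sources used here, so reads of such pairs may not be separated.

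A joint fit tested whether the pregnancy difference changed with the compartment. None of the 36 members detectable in all compartments passed 1%, against 3.05% of all genes, and 1 passed 5%, against 9.49%. That member was TRIM25 (edgeR adjusted p = 0.048), and IFITM3 came next with adjusted p = 0.051. The difference of TRIM25 was 1.22 log2 units smaller in LE than in GE (SE 0.34, edgeR adjusted p = 0.041) and 1.15 smaller than in BV (SE 0.33, adjusted p = 0.029). That of IFITM3 was 1.98 lower in LE than in GE (SE 0.57, edgeR adjusted p = 0.048) and 1.96 lower than in BV (SE 0.54, adjusted p = 0.024). For GBP1 the difference was 3.92 larger in GE than in BV (SE 1.31, edgeR adjusted p = 0.11).

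Within most groups, the members moved together from gilt to gilt, and the leading gilt changed with the compartment. This was less marked in cyclic BV, where gilts C128 and C42 were highest for 14 and 13 of 38 members (25.5% and 22.4% of all genes). Cyclic gilt C128 was the highest of the cyclic libraries for 30 of 38 members in LE and 30 of 36 in GE, whereas it was highest for 32.9% and 36.3% of all genes. In S cyclic gilt C42 was highest for 24 of 39 members (27.5% of all genes), and cyclic gilt C40 was lowest for 32 of 39 (19.7% of all genes). Pregnant gilt P139 was highest for 33 of 36 members in GE (35.4% of all genes) and 26 of 39 in S (30.2%), but lowest for 33 of 38 in BV (32%). In BV gilt P43 was highest for 22 of 38 members (22.7% of all genes) and gilt P41 for 16 (23.1%), while in LE gilts P139 and P41 were highest for 19 and 18 of 38 (28.1% and 26.9%). The members of 1 library share that library, so these counts describe libraries and not independent genes.

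The size of these shifts was taken as the median deviation of the members from the mean of their own group on the log2(CPM + 1) scale. It was 0.76 in LE and 0.82 in GE for cyclic gilt C128, and 0.78 in GE, 0.41 in S and -0.66 in BV for pregnant gilt P139. Pregnant gilt P39 was at -0.44 in LE and -0.69 in GE, and cyclic gilt C40 at -0.49 in GE and -0.40 in S. The same median over all detectable genes lay between -0.048 and 0.040 in every library. In BV gilt P139 had 0 of 38 members above the mean of the pregnant libraries. This library also had 6217 CPM of smooth muscle markers against 724 to 1887 CPM in the other pregnant BV libraries, and 128.2 CPM of leukocyte markers against 432 to 487 CPM, and the part of cell makeup in its low levels was not tested. In GE gilt P139 had the highest leukocyte sum (152 CPM) and endothelial sum (162 CPM against 13.7 to 51.7 CPM in the other GE libraries), and their part was not tested either. In these bulk samples fewer cells of a type and less RNA per cell cannot be told apart.

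**Figure D5:**
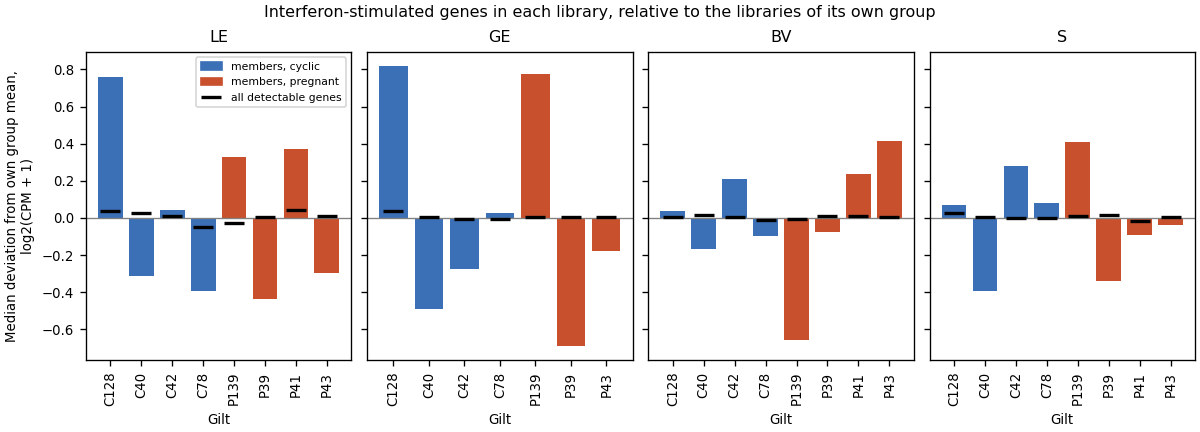
Median deviation of the members from the mean of their own group, in log2(CPM + 1), for each library (bars; blue, cyclic gilts; orange, pregnant gilts), with the same median over all detectable genes as black marks. Cyclic gilt C128 is high in LE and GE (0.76 and 0.82), and pregnant gilt P139 is high in GE (0.78) and low in BV (-0.66).

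The spread of the members exceeded that of genes in general in every group. The median SD of log2 CPM was 0.61 over members and 0.37 over all genes in cyclic LE, and 0.54 and 0.31 in pregnant LE. In pregnant GE it was 0.77 against 0.28, in pregnant BV 0.60 against 0.29 and in pregnant S 0.48 against 0.32. The highest SDs among pregnant libraries were those of CXCL10 in LE, GE and BV (1.93, 3.21 and 1.80) and of GBP1 in S (2.47).

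Other genes of the pathway, from lists that held none of the members, gave 2 calls among 40 genes tested in LE (5%, against 3.32% of all genes) and 0 calls among 38, 38 and 40 tested in GE, BV and S. The lists covered receptors and kinases, negative regulators, adaptors of nucleic acid sensing and further interferon-stimulated genes. Of the latter, 11 were higher and 7 lower in pregnant LE. In GE and in BV 14 were higher and 3 lower, and in S 16 and 2. Their median log2 fold changes were 0.09, 0.84, 0.45 and 0.57 in LE, GE, BV and S. Over all genes 49.4%, 49.3%, 50.2% and 50.1% were higher. Without gilt P139 the counts were 7 and 11 in LE, 10 and 7 in GE, and 14 and 4 in S. The medians were then -0.37, 0.05 and 0.34. PIAS1, a negative regulator of JAK and STAT signaling, rose from 92.6 ± 10.9 to 173 ± 22.6 CPM (SD, n = 4 each), with a log2 fold change of 0.92 (SE 0.15, edgeR adjusted p = 0.0066). IFI30, a lysosomal thiol reductase of antigen processing, rose from 24.9 ± 7.73 to 76.8 ± 19.4 CPM (SD, n = 4 each), with a log2 fold change of 1.64 (SE 0.29, edgeR adjusted p = 0.0091). JAK1, the kinase shared by interferon receptors, and SHISA5, a regulator of apoptosis, were 0.93 and 0.97 log2 units higher in pregnant LE (edgeR adjusted p = 0.018 and 0.026), short of the 1% limit. TNFSF10 (TRAIL), a death ligand, was 3.86 log2 units higher in pregnant GE (edgeR adjusted p = 0.048), or 2.53 without gilt P139, at 27.0, 91.4 and 329 CPM in the 3 pregnant libraries against 9.5 to 10.8 CPM in the cyclic ones. PTPN11 (SHP2), a phosphatase that damps JAK and STAT signaling, was 0.57 log2 units lower in pregnant BV (edgeR adjusted p = 0.038).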

How the data were processed

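The deposited tables held whole-number read counts per NCBI gene, 1 column per library. After trimming (Trim Galore), the authors aligned the reads by Hisat2 to Sscrofa11.1, took out PCR duplicates using nudup, counted with QuasR and filtered genes by a CPM cut-off (versions and cut-off not given in the sources used here). The members and gene lists were chosen with earlier results of these data known. Counts were tested with edgeR 4.0.16 (R 4.3.3) by the quasi-likelihood test with TMM scaling and Benjamini-Hochberg adjustment over all detectable genes of a compartment, and DESeq2 1.42.0, a robust GLM, other scalings, filters and leave-one-out fits were alternatives. Joint fits over the 4 compartments had the gilt as a block, since the labels give libraries of the same gilt the same number. Over 45 such pairs of libraries, deviations from group means correlated with a median r of 0.17, 34 of them over 0.1. Scripts were tested on simulated counts. Leave-one-out values of levels and of members outside the naming rule, and counts over members detectable in all 4 compartments, were added after the data were seen. Values in every library are given for members called by the main test or by both other tests, the 3 highest members per length in each compartment and those the study names. Upstream windows came from RefSeq's Sscrofa11.1 annotation. Within a compartment each library is a separate gilt, whereas libraries of different compartments share gilts. Library totals of 2415216 to 7081556 counts limit precision for members under about 1 CPM. P-values cover the spread between 3 or 4 gilts.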

Additional observations from a re-analysis of the deposited data

Results flagged for a closer look

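In 79 groups of 4 libraries, taken for each member described singly, 10 values stood apart from the others of their group by Dixon's test. Several of these values came from the same library. The limit used sets apart about 1 group in 20 where values are normally distributed and groups are independent. Here CPM was not on a log scale and the groups share libraries, so the count cannot be set against that rate. Pregnant gilt P139 stood apart in LE for IRF1 (90.0 CPM), GBP1 (344 CPM), GBP2 (103 CPM) and CXCL10 (81.2 CPM). Pregnant gilt P43 stood apart in BV for IRF1 (149.9 CPM), GBP1 (307 CPM) and CXCL10 (98.0 CPM). Cyclic gilt C128 stood apart for IFITM3 in LE (463 CPM) and RSAD2 in GE (17.7 CPM), and pregnant gilt P41 for IFI6 in LE (178 CPM). Pregnant GE, with 3 libraries, could not be checked in this way.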

How the results depend on the processing

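The counts of members called for pregnancy depended on the test. In the order LE, GE, BV and S, DESeq2 called 4, 4, 1 and 2 (11.2%, 6.64%, 8.5% and 2.6% of all genes). The robust GLM called 2, 5, 1 and 4 (11.8%, 6.66%, 11% and 3.16%), against 0 in each by the main test. A false discovery rate of 5% called 1 in LE and 1 in BV (10.7% and 8.63% of all genes). The fit without a filter called 1 in GE (GBP1). RLE scaling and filterByExpr called 0 in every compartment. Leaving out each library in turn gave 0 to 0 (LE), 0 to 2 (GE), 0 to 1 (BV) and 0 to 0 (S), with the 2 in GE (GBP1 and CXCL10) without pregnant gilt P39, and 1 (TRIM25) without cyclic gilt C40 in GE or pregnant gilt P139 in BV. The count of members whose level differed between compartments was 33, 27 with no replicate block and 28 to 35 when a gilt was left out, and that of pregnancy differences changing with the compartment was 0 in each of these fits. For the fits given here without a share of all genes, a change in the count is not read as particular to the members. Directions reversed for RSAD2 in BV under the robust GLM (-0.10). Leaving out 1 library reversed OAS2 in GE (-0.73 to 0.14), IFITM3 in GE (-0.36 to 0.57), RSAD2 in GE (-1.35 to 1.82), OAS1 in BV (-0.12 to 0.83), OAS2 in BV (-0.14 to 0.35), RSAD2 in BV (-0.29 to 0.62) and GBP1 in BV (-0.11 to 1.25). The cause of the differences between tests was not tested. OASL and IDO1 in every compartment, and ISG15 outside S, were below the detection filter.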
